A study of Homo sapiens with 4 samples.

Results

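Integrins are the receptors by which cells hold on to the matrix around them. Each receptor joins 1 alpha to 1 beta subunit, and the pair sets the ligand, which may be laminin, collagen, fibronectin or a counter-receptor on another cell. Laminins are large secreted proteins built from an alpha, a beta and a gamma chain, and they form the first network of a basement membrane, the sheet on which the urothelium of the bladder rests. The integrin made of ITGA6 and ITGB4 binds laminin at hemidesmosomes, the rivets of basal epithelial cells.

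The genes described here are all those of the deposited table whose symbol names an integrin alpha or beta subunit or a laminin alpha, beta or gamma chain. They number 38 of 60623 genes, with 18 integrin alpha, 8 integrin beta, 5 laminin alpha, 4 laminin beta and 3 laminin gamma genes. The rule reads symbols alone, though it was set with earlier results of these data known.

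RNA was sequenced from T24 cells, an established human bladder carcinoma cell line grown in RPMI medium with 10% FCS, in 2 libraries labelled as control and 2 of cells that overexpress CBX7. CBX7 is a chromobox protein of a Polycomb complex, which binds methylated histone H3 and keeps genes silent, and the methods describe it as cloned at full length into a pCDH-3xFLAG plasmid. What the control cells carried, and whether the libraries of a group came from separate cultures, is not stated, so every p-value measures the spread between these libraries only. The question put to the integrins and laminins is which of them T24 cells transcribe and whether their levels differ when CBX7 is raised.

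CBX7 itself checked the labels, with 261 and 203 estimated counts in the control libraries and 42852 and 35641 in the CBX7 libraries, and its log2 fold change was 7.35 (SE 0.18, adjusted p = 0.000584, edgeR's quasi-likelihood test, Benjamini-Hochberg across 14862 genes). The 4 libraries held 20800910 to 25135488 counts, so that 3 counts, the upper limit a count of 0 allows, stand for 0.119 to 0.144 CPM (counts scaled to the library total). Such limits cover counting error only. The libraries differed by gene length. Over 11044 genes the Spearman correlation of the ratio with length was -0.623 for CBX7 replicate 1 over control replicate 1, -0.704 for CBX7 replicate 1 over CBX7 replicate 2 and -0.49 for control replicate 1 over control replicate 2, against 0.0418 for CBX7 replicate 2 over control replicate 2. Long genes were thus lowest in CBX7 replicate 1, relative to short genes, and next in control replicate 1. The tested integrin and laminin genes had a median deposited length of 5692 bases, against 2867 over all tested genes. KRT8, KRT18 and KRT7, keratins of simple epithelia and urothelium, were at 957 to 1761 CPM in the libraries, whereas 9 of the 16 epithelial markers, among them CDH1, KRT5, KRT14, KRT20, UPK2 and TP63, did not exceed 3 counts in any library. The cells thus carried general epithelial keratins, while transcripts that define basal cells, umbrella cells and E-cadherin junctions were at or near 0.

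The start regions of these genes differ widely in CpG content, the base pair at which DNA methylation acts and near which Polycomb complexes are often found. The 250 bases before the start site, from RefSeq on GRCh38.p14, are printed 5′ to 3′ on the strand of each gene for 5 members that span this range, with every CpG in capitals. ITGB1 (chr10:32958231-32958480, minus strand) and LAMA5 (chr20:62367313-62367562, minus strand) are the most abundant integrin beta and laminin alpha genes, and ITGA6 (chr2:172427086-172427335, plus strand) encodes the partner of ITGB4. ITGA11 (chr15:68432164-68432413, minus strand) and LAMB4 (chr7:108130362-108130611, minus strand) had 17 and 1.5 counts in all 4 libraries together.
ITGB1: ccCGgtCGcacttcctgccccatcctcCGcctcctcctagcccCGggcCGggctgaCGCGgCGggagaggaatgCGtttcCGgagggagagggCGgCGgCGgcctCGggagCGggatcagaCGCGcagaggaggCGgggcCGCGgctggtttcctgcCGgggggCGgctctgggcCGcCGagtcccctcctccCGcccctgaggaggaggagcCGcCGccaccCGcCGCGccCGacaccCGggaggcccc
LAMA5: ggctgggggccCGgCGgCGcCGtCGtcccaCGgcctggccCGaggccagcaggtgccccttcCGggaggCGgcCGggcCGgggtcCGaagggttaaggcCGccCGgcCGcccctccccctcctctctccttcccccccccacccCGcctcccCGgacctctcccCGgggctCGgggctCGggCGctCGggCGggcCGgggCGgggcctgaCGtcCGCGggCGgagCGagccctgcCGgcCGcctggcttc
ITGA6: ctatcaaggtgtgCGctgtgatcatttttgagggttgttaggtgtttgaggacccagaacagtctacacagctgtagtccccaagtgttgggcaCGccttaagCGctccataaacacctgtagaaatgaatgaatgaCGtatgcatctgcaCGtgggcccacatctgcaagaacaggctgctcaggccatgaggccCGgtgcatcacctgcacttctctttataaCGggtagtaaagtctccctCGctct
ITGA11: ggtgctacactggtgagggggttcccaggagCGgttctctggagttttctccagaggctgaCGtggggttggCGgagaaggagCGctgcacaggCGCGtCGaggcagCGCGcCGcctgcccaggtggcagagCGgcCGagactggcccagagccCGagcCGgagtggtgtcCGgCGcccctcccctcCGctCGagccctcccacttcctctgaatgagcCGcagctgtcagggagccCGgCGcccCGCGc
LAMB4: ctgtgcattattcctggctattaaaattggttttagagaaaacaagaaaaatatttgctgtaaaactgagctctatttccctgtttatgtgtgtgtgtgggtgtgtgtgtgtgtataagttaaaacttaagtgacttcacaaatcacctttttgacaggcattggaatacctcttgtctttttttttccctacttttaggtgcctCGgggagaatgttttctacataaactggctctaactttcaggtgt

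The regions of ITGB1 and LAMA5 held 32 CpG each, that of ITGA6 8, that of ITGA11 23 and that of LAMB4 1. A start region was matched for 26 of the 38 members, with the most upstream start taken where RefSeq lists several. The median was 12 CpG (2 to 32) in the 18 matched members that had enough counts to be tested and 2 (0 to 25) in the 8 that had not. Over all genes the medians were 21 in 10393 tested and 5 in 7328 untested genes, so the members follow the order of the whole table. At least 1 CpG was present in 96.2% of members and 96.1% of all 17721 matched genes. The letters GGGCGG, the GC box, searched on both strands and overlapping CpG by its own letters, occurred in 11 of the 18 tested members (61.1%) and 2 of the 8 untested, against 67.5% and 29.8% of all tested and untested genes. TATAAA, searched on both strands, occurred in 1 member, ITGA6, and in 9.6% of all regions.

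**Figure D1:**
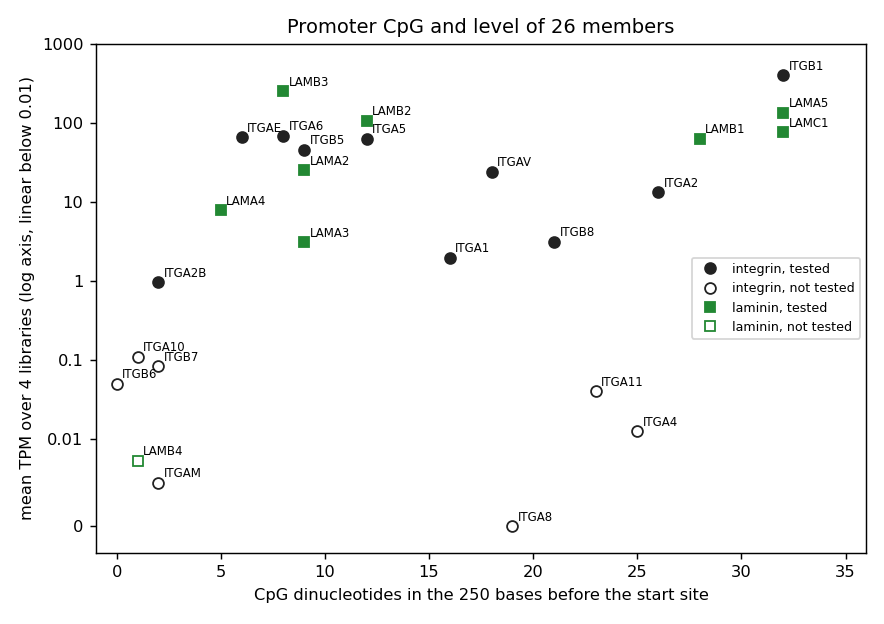
The horizontal axis counts CpG in the 250 bases before the start of 26 members and the vertical axis gives the mean TPM over the 4 libraries on a log axis that is linear below 0.01, with filled symbols for tested genes, open symbols for untested ones, circles for integrins and squares for laminins. ITGA4, ITGA11 and ITGA8 have 25, 23 and 19 CpG and lie near 0 TPM, while ITGAE and LAMB3 have 6 and 8 and lie far higher.

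CpG content did not by itself order the levels. LAMB3 had a mean of 252 TPM with 8 CpG, and ITGA6 had 68.8 TPM with 8. RefSeq lists 3 starts for LAMB3 and 2 for ITGA6, and which of them gave these transcripts was not tested. In contrast, ITGA4, ITGA11 and ITGA8 had 25, 23 and 19 CpG and 2, 17 and 0 counts over all libraries.

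Levels of different genes are compared as TPM, the deposited measure of transcript abundance, which is scaled by length and library total. ITGB1, the beta subunit shared by most receptors for matrix, was the most abundant member, with 440.2 and 469 TPM in the control libraries and 267 and 419 TPM in the CBX7 libraries. ITGA3, a laminin-binding alpha subunit that pairs only with ITGB1, followed with 299 and 309 TPM in control and 244 and 283 TPM in CBX7 cells. LAMB3, the beta chain of the laminin of hemidesmosomes, had 249 and 248 TPM in control and 254 and 259 TPM in CBX7 cells. The values of LAMB3 lay within those of ITGA3 and below those of ITGB1, and its 4 libraries were the closest together of these 3 genes.

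Of the 38 members 5 had a mean of at least 100 TPM, 15 of at least 10 TPM and 23 of at least 1 TPM. After those 3 came LAMA5 with 123 to 150 TPM and LAMB2 with 101 to 116 TPM. Of the 37 neighbouring pairs in the order of mean TPM, 31 overlapped in their library values. The pairs that did not overlap included LAMB3 over LAMA5, LAMA5 over LAMB2, LAMB2 over LAMC1, ITGA5 over ITGB5 and ITGB2 over ITGB3. The place of LAMB2 depended on the scale. By CPM per kilobase of deposited length its mean was 25.1, below LAMC1 at 37.2 and LAMB1 at 31.9.

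**Figure D2:**
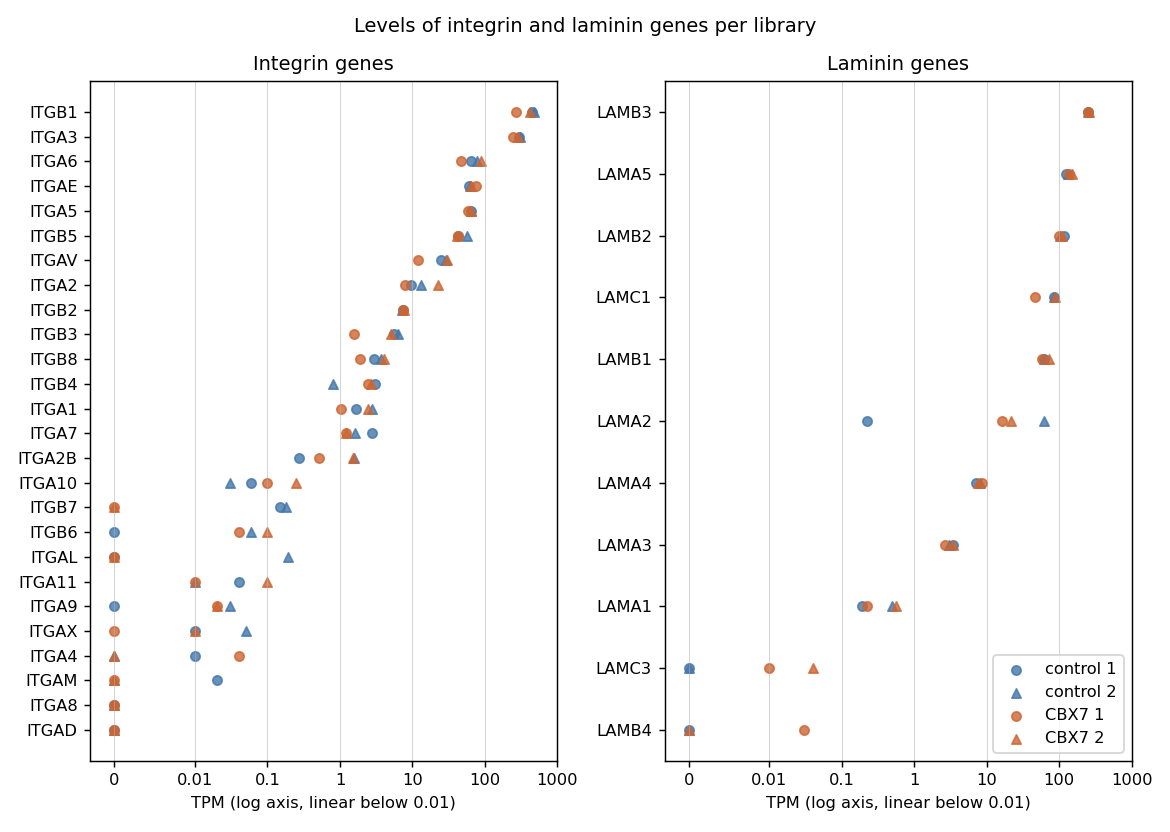
TPM of the integrin (left) and laminin (right) genes in each of the 4 libraries, with 1 member not shown, ordered by mean, on a log axis that is linear below 0.01, with blue for control and orange for CBX7, circles for replicate 1 and triangles for replicate 2. ITGB1 at 267 to 469 TPM and ITGA3 at 244 to 309 TPM lead the integrins, LAMB3 at 248 to 259 TPM leads the laminins, and LAMA2 spreads from 0.22 to 62.2 TPM.

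Among the alpha subunits that join ITGB1, ITGA3 was followed by ITGA6, a laminin-binding subunit, with 63.4 and 77.0 TPM in control and 46.2 and 88.5 TPM in CBX7 cells. ITGA5, which forms the fibronectin receptor, had 65.0 and 63.6 TPM in control and 58.9 and 64.3 TPM in CBX7 cells. ITGAV, shared by receptors for vitronectin and latent TGF-beta, had 24.6 and 29.5 TPM in control and 11.8 and 30.4 TPM in CBX7 cells. ITGA6 and ITGA5 overlapped in their TPM values and ITGAV lay below both. By CPM per kilobase ITGA6 had a mean of 83.5 against 31.4 for ITGA5, so their closeness depended on the scale. Of the collagen-binding subunits, ITGA2 had 7.92 to 22.2 TPM and ITGA1 1.03 to 2.77 TPM, whereas ITGA10 and ITGA11 did not exceed 11 counts in any library. ITGA7, a laminin-binding subunit known from muscle, had 1.20 to 2.76 TPM. Summed over the 12 alpha subunits that can join ITGB1, the level was 467 and 497 TPM in control and 371 and 493 TPM in CBX7 cells, close to the level of ITGB1 itself in the control libraries.

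ITGAV also joins ITGB3, ITGB5, ITGB6 and ITGB8. ITGB5 led these, with 42.8 and 56.9 TPM in control and 42.7 and 41.5 TPM in CBX7 cells. ITGB3 and ITGB8 were far lower, at 1.54 to 6.23 TPM and 1.9 to 4.02 TPM. ITGB6, the subunit of the epithelial receptor that activates TGF-beta, had 0, 4, 2 and 5 counts in control replicates 1 and 2 and CBX7 replicates 1 and 2. ITGB4 had a mean of 2.24 TPM, while ITGA6, the only subunit it pairs with, had 68.8 TPM. In these cells ITGA6 transcripts were thus present far above those of ITGB4 and below those of ITGB1.

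The alpha subunits that pair with ITGB2 on leukocytes were at or near 0. ITGAD was at 0 in all 4 libraries and ITGAL, ITGAM and ITGAX had at most 2 counts in any. ITGB2, the beta subunit they share, had 356 and 267 counts in control and 382 and 305 in CBX7 cells, or 7.08 to 7.60 TPM. PTPRC, which marks all leukocytes, had at most 1 count in a library, and 7 of 9 leukocyte markers did not exceed 3 counts. ITGB2-AS1, which runs against ITGB2 within its locus in GENCODE 29, had 51.5 and 50.3 counts in control and 85.4 and 89.9 in CBX7 cells, and since the use of strand in counting is not stated, reads of the 2 genes cannot be told apart. The 13 members not tested were ITGA8 and ITGAD at 0 throughout, ITGA4, ITGAL, ITGAM, ITGAX, ITGB7, LAMB4 and LAMC3 at no more than 3 counts in every library, and ITGA9, ITGA10, ITGA11 and ITGB6 with 2 to 11 counts in the libraries where they were seen. For the genes at 0, transcription under the limit of 3 counts was not detectable at this depth.

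ITGAE, the alpha subunit of intraepithelial lymphocytes, had 60.8 and 62.3 TPM in control and 75.2 and 65.2 TPM in CBX7 cells, the eighth highest mean of all members. Its only partner, ITGB7, had at most 1 count in any library. The level of ITGAE depended on the scale: the deposited TPM was 5.51 to 5.82 times the value computed from its counts and deposited length, and by CPM per kilobase it ranked 14. HASPIN, a kinase gene on the opposite strand within the ITGAE locus, had 536 to 602 counts, against 431 to 734 for ITGAE.

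Laminin transcripts were dominated by a few chains. LAMA5, the broadly expressed alpha chain of epithelial basement membranes, had 123 and 131 TPM in control and 136 and 149.9 TPM in CBX7 cells. LAMA4, an alpha chain known from vessels and muscle, had 7.04 to 8.71 TPM, LAMA3, the alpha chain of the hemidesmosome laminin, 2.63 to 3.39 TPM, and LAMA1, the chain of early embryonic basement membranes, 0.19 to 0.56 TPM. LAMA5 was thus the only alpha chain above 100 TPM. LAMA2, the chain of muscle basement membrane, had a deposited TPM of 0.22, 62.2, 16.4 and 21.8 on 9, 16.9, 17.3 and 17.4 counts in control replicates 1 and 2 and CBX7 replicates 1 and 2. These TPM values were up to 365 times what its counts and length give, and LAMA2 ranked 25 by CPM per kilobase. Its level is therefore read from the counts here.

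The common beta chains LAMB2 and LAMB1 had 101 to 116 TPM and 57.4 to 72.5 TPM, and the common gamma chain LAMC1 had 85.6 and 84.4 TPM in control and 46.2 and 87.5 TPM in CBX7 cells. LAMA3 and LAMB3, which join in the hemidesmosome laminin, were at very unequal levels, with mean TPM of 3.10 and 252, and their library values did not overlap. Summed by kind, and without LAMA2, the alpha chains had 134 to 161 TPM and the beta chains 412 to 440 TPM. Beta chains exceeded alpha chains in every library.

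No integrin or laminin gene passed an adjusted p of 0.05 between CBX7 and control cells in edgeR's quasi-likelihood test. The count was 0 of 25 tested members, where 3 of all 14862 genes passed (0.0202%). At an unadjusted p under 0.05 there was 1 member, ITGB4, of 25, and 705 genes of all (4.74%). DESeq2 called the same 1 member, against 67 of all genes (0.451%). By sign, 5 of 15 integrins were higher and 10 lower in CBX7 cells with a median log2 fold change of -0.08, and 6 of 10 laminins were higher and 4 lower with a median of 0.06, where the median of all tested genes was 0.00170. The median of the laminins changed sign with single libraries left out, and that of the integrins stayed below 0 in these alternatives. With the length correction the laminins were 8 higher and 2 lower with a median of 0.23 and the integrins 6 and 9 with -0.01. The median of the laminins was -0.08 without control replicate 1 and -0.17 without CBX7 replicate 2, and that of the integrins -0.02 without CBX7 replicate 1 and -0.17 without CBX7 replicate 2. In CPM the 2 CBX7 libraries exceeded the 2 control libraries for 4 members (15.4% of all genes did so), namely ITGA2B, ITGAE, ITGB4 and LAMB3. Both lay below for 9 members (14.8% of all genes), namely ITGA1, ITGA3, ITGA5, ITGA7, ITGB1, ITGB3, LAMA4, LAMB1 and LAMB2. Of all these, ITGA1, ITGA2B, ITGA5, ITGB4, LAMA4, LAMB1 and LAMB2 overlapped between groups in deposited TPM. LAMA5 and ITGB5 overlapped in CPM but not in deposited TPM, where LAMA5 was higher and ITGB5 lower in CBX7 cells.

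**Figure D3:**
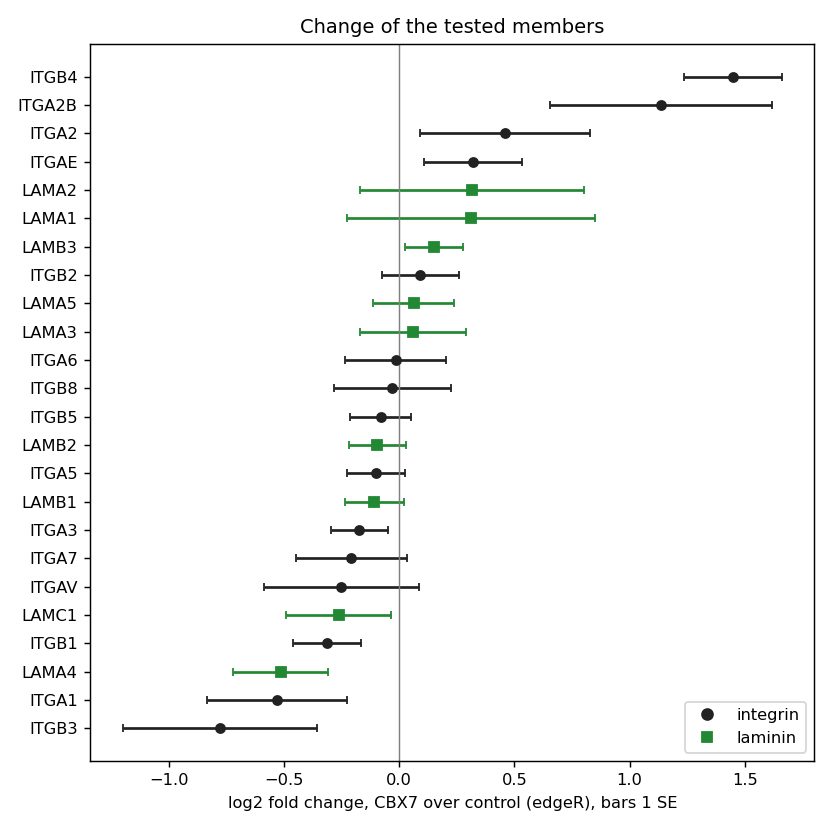
Log2 fold change of CBX7 over control cells for the tested members from edgeR, sorted, with 1 member not shown, bars of 1 SE, circles for integrins and squares for laminins. ITGB4 at 1.45 stands highest with a narrow bar, ITGB3 at -0.78 stands lowest with a wide one, and the laminins lie between -0.51 and 0.32.

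ITGB4 showed the clearest difference. It lies on chromosome 17 from 75721328 to 75757818 on the plus strand (ENSG00000132470, GENCODE 29 on GRCh38). Its counts were 85 and 64 in the control libraries and 196 and 223 in the CBX7 libraries, or 3.56 and 3.05 CPM against 8.12 and 9.98 CPM. The groups did not overlap, and their means were 3.31 ± 0.363 and 9.05 ± 1.32 CPM (SD, n = 2). The log2 fold change was 1.45 (SE 0.21, a fold of 2.73), with an unadjusted p of 0.000627 and an adjusted p of 0.26 by edgeR with Benjamini-Hochberg adjustment, and an adjusted p of 0.00687 by DESeq2. With each library left out in turn the log2 fold change was between 1.29 and 1.59. On the deposited TPM scale the groups overlapped, with 3.01 and 0.80 TPM in control and 2.41 and 2.72 TPM in CBX7 cells, and the TPM of control replicate 1 was 2.51 times the value given by its counts and the deposited gene length.

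ITGA6, the partner of ITGB4, had 264 and 306 CPM in control and 226 and 338 CPM in CBX7 cells. Its log2 fold change was -0.02 (SE 0.22) and the groups overlapped, with CBX7 replicate 1 lowest and CBX7 replicate 2 highest. ITGB1, which also joins ITGA6, had 1177 and 1193 CPM in control and 857 and 1050 CPM in CBX7 cells. The log2 fold change of ITGB1 was -0.31 (SE 0.15, unadjusted p = 0.0811 and adjusted p = 0.951 by edgeR), with both CBX7 libraries below both control libraries. It was -0.17 without CBX7 replicate 1 and -0.47 without CBX7 replicate 2. ITGB1-DT, a noncoding gene on the opposite strand that overlaps the ITGB1 locus in GENCODE 29, had 52 and 31 counts in control and 19.1 and 16 in CBX7 cells.

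ITGB3, the beta subunit of the vitronectin and the platelet fibrinogen receptors, had 16.5 and 16.6 CPM in control and 5.38 and 13.96 CPM in CBX7 cells. The 2 control libraries agreed closely and CBX7 replicate 1 lay far below all others. The log2 fold change was -0.78 (SE 0.42, unadjusted p = 0.117 by edgeR). It was -0.24 without CBX7 replicate 1 and -1.62 without CBX7 replicate 2, so the size of this difference rested on CBX7 replicate 1. At its length of 3995 bases, the trend with length over all genes came to a difference between groups of -0.05 on the log2 scale.

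ITGA2B, the platelet partner of ITGB3, had only 8 and 17 counts in control and 31 and 27 in CBX7 cells. It was not tested where at least 10 counts were required in every library. The CBX7 libraries were the higher ones without overlap, with a log2 fold change of 1.14 (SE 0.48, unadjusted p = 0.0597 and adjusted p = 0.951 by edgeR). It was 0.62 without control replicate 1 and 1.88 without control replicate 2. In deposited TPM the groups overlapped, with 0.27 and 1.57 in control and 0.51 and 1.51 in CBX7 cells. Of the other platelet markers, GP9, PF4 and PPBP were at 0 in all 4 libraries and GP1BA, a platelet receptor gene, had 7 and 25 counts in control and 9 and 26 in CBX7 cells.

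**Figure D4:**
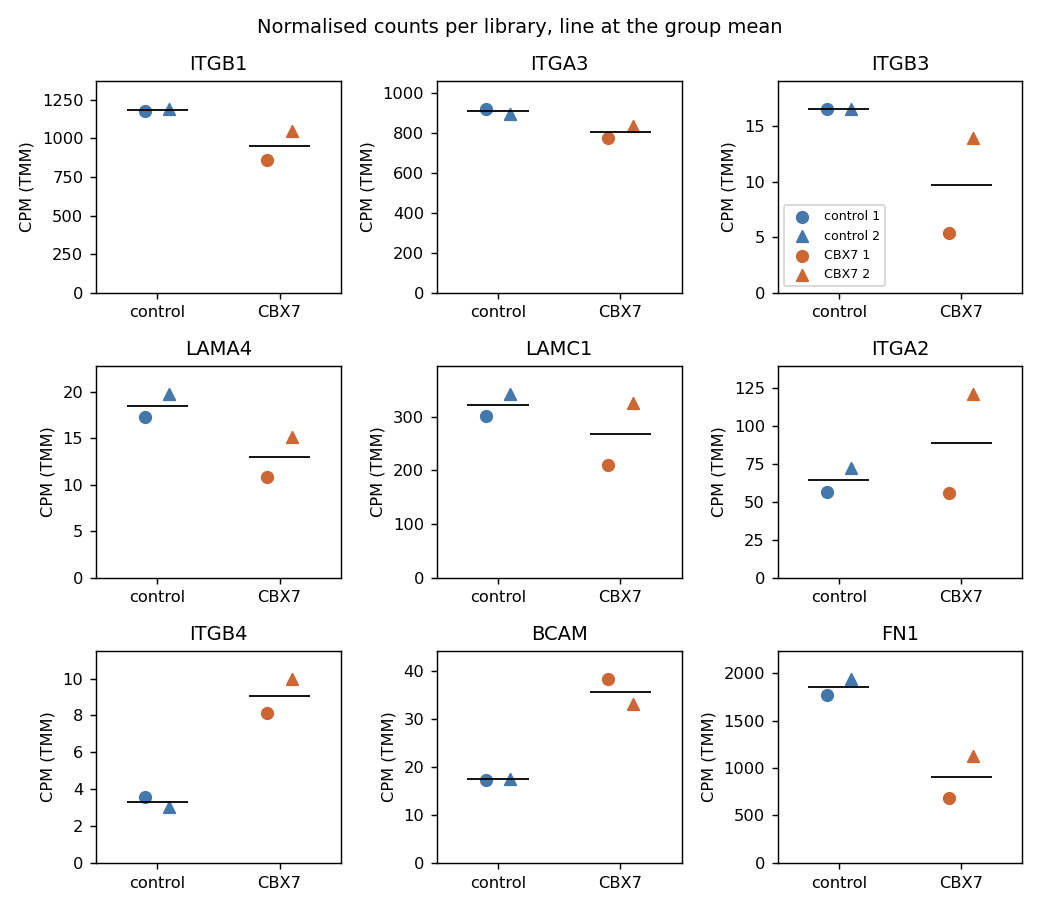
TMM-normalised CPM of 9 genes in each library, with a vertical axis from 0 in each panel, circles for replicate 1, triangles for replicate 2 and a line at each group mean. ITGB4 and BCAM are higher in both CBX7 libraries and FN1 is lower in both, whereas for ITGB3, LAMC1 and ITGA2 the CBX7 libraries lie far apart.

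The remaining beta subunits differed by less. ITGB5, ITGB2 and ITGB8 had log2 fold changes of -0.08 (SE 0.13), 0.09 (SE 0.17) and -0.03 (SE 0.25), and all 3 overlapped between groups in CPM. The direction for ITGB8 turned after correction for gene length, to 0.12.

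Of the alpha subunits, ITGA2, the main collagen receptor subunit of epithelia, had 56.5 and 72.6 CPM in control and 56.1 and 121 CPM in CBX7 cells. The CBX7 libraries lay at both ends of the range, and the log2 fold change of 0.46 (SE 0.37) became -0.20 without CBX7 replicate 2 and 0.92 without CBX7 replicate 1. ITGA1 had 11.5 and 12.2 CPM in control and 5.76 and 10.7 CPM in CBX7 cells, without overlap, and a log2 fold change of -0.53 (SE 0.30, unadjusted p = 0.136 by edgeR), which was -0.14 without CBX7 replicate 1 and -1.05 without CBX7 replicate 2. ITGAV had 122 and 148 CPM in control and 74.5 and 152 CPM in CBX7 cells, with overlap, a log2 fold change of -0.25 (SE 0.34) and 0.18 without CBX7 replicate 1. In ITGA1 and ITGAV alike CBX7 replicate 1 was the low library. ITGA3 had 921 and 893 CPM in control and 775 and 833 CPM in CBX7 cells, with a log2 fold change of -0.17 (SE 0.12, unadjusted p = 0.212 by edgeR). ITGA5 and ITGA7 were also lower in both CBX7 libraries, at -0.10 (SE 0.13, -0.14 to -0.06 with single libraries left out) and -0.21 (SE 0.24, -0.32 to -0.11), and ITGAE was higher at 0.32 (SE 0.21), a value of 0.01 without CBX7 replicate 1.

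Among the laminins LAMA4 had the lowest p. It had 17.3 and 19.8 CPM in control and 10.8 and 15.1 CPM in CBX7 cells, with no overlap, a log2 fold change of -0.51 (SE 0.21, unadjusted p = 0.050 and adjusted p = 0.951 by edgeR) and 412, 416, 262 and 338 counts. The log2 fold change of LAMA4 was -0.29 without CBX7 replicate 1 and -0.77 without CBX7 replicate 2. On the deposited TPM scale LAMA4 was 7.04 and 8.01 in control and 8.71 and 7.62 in CBX7 cells, so the direction of CBX7 replicate 1 differed between the scales. LAMB3 had 585 and 565 CPM in control and 667 and 608 CPM in CBX7 cells, with a log2 fold change of 0.15 (SE 0.13) and 0.09 to 0.21 with a library left out. LAMA3, which joins it, had a log2 fold change of 0.06 (SE 0.23) and overlapped between groups. Neither LAMB3 nor LAMA3 passed the adjusted p.

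LAMA5 had 425 and 457 CPM in control and 395 and 527 CPM in CBX7 cells, with the CBX7 libraries outside the control range on either side and a log2 fold change of 0.06 (SE 0.17). In deposited TPM both CBX7 libraries of LAMA5 were the higher ones, at 136 and 149.9 against 123 and 131. Its log2 fold change was 0.27 after correction for length and 0.09 after correction for length and GC. LAMC1 had 300.4 and 343 CPM in control and 210.1 and 326 CPM in CBX7 cells, and its log2 fold change of -0.26 (SE 0.23) became 0.02 without CBX7 replicate 1. LAMB1 and LAMB2 were lower in both CBX7 libraries by small amounts, with log2 fold changes of -0.11 (SE 0.13, -0.17 to -0.04 with single libraries left out) and -0.10 (SE 0.12), and both turned to small positive values, 0.01 and 0.03, after correction for gene length. LAMA1 and LAMA2, at 0.31 (SE 0.54) and 0.32 (SE 0.49), rested on 19 to 51 and 9 to 17.4 counts a library.

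The CBX7 libraries differed from each other more than the control libraries did in 22 of the 25 tested members, with a median absolute difference of 0.295 on the log2 scale against 0.110. The same count was not made over all genes, so it cannot be read as particular to these genes. Over 11044 genes the ratio of replicate 1 to replicate 2 fell with gene length in both groups. The Spearman correlation was -0.704 for the CBX7 libraries and -0.49 for the control libraries. For CBX7 replicate 1 over control replicate 1, the log2 ratio was negative in 18 members with a median of -0.154, where all genes had -0.002. For CBX7 replicate 2 over control replicate 2 it was negative in 12 members with a median of 0.001, where all genes had -0.005. Values below control were thus the more frequent case in the first pair and not in the second. Across the 25 members the Spearman correlation of the ratio with gene length was -0.228 in the first pair and 0.169 in the second, a description over genes that share their libraries. In CBX7 replicate 1 the trend with length over all genes gave -0.43 on the log2 scale at the length of ITGA1, -0.451 at that of LAMA5 and -0.329 at that of LAMC1, relative to the mean of the libraries. The part of gene length in each member's difference was not tested.

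**Figure D5:**
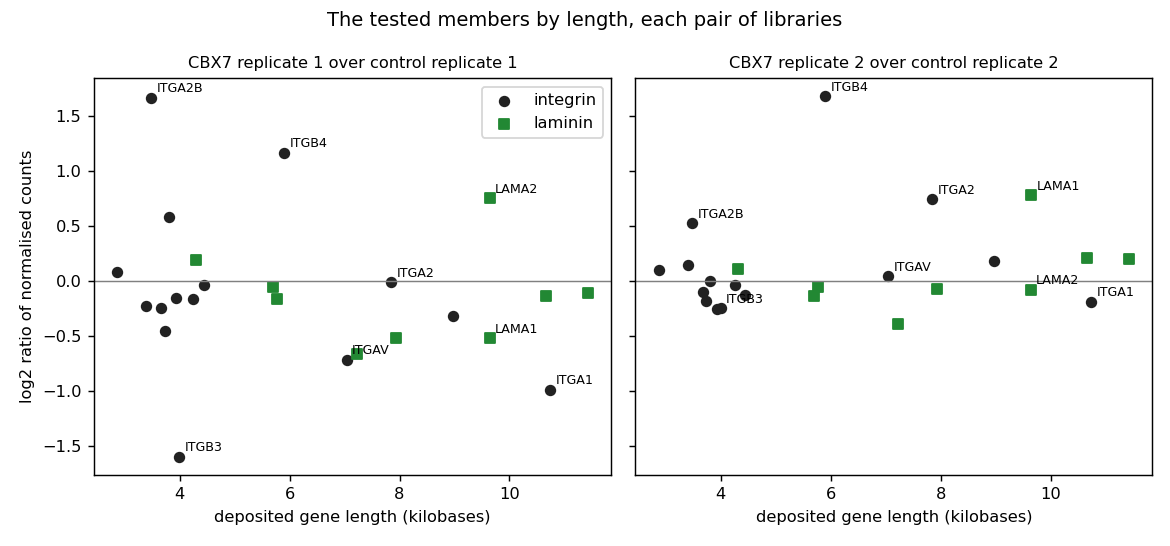
Log2 ratio of normalised counts against deposited gene length in kilobases for the tested members, 1 of them not shown, with CBX7 replicate 1 over control replicate 1 on the left and CBX7 replicate 2 over control replicate 2 on the right, circles for integrins and squares for laminins. ITGB4 is above 0 in both panels, 18 members are below 0 on the left and 12 on the right.

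The number of members called depended on single libraries. Without CBX7 replicate 2, which leaves CBX7 replicate 1 alone and assumes that it varies as the control libraries do, 9 integrins and 2 laminins passed an adjusted p of 0.05 by edgeR, 11 of the 26 then tested, where 5491 of all 15452 genes did (35.5%), so the share of members was near that of all genes. Without CBX7 replicate 1 there were 2 integrins and 0 laminins among 397 genes (2.59%), and without control replicate 1 and control replicate 2 there were 1 and 0 integrins among 59 and 45 genes (0.384% and 0.291%). The adjusted p of ITGB4 by edgeR was 4.76e-11 without CBX7 replicate 1, 2.57e-07 without CBX7 replicate 2, 0.0463 without control replicate 1 and 0.212 without control replicate 2, where it was not called. In each of these fits the library left alone in its group is assumed to vary like those of the other group.

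Genes that work with integrins and laminins were read from 4 lists. Of 10 genes of hemidesmosomes and laminin partners, all were tested and 0 passed an adjusted p of 0.05 by edgeR, 2 had an unadjusted p under 0.05 and DESeq2 called 1, with 6 higher, 4 lower and a median log2 fold change of 0.11. Over all genes 4.74% had such an unadjusted p and DESeq2 called 0.451%. The number called in this list depended on single libraries, as it did over all genes. Its median was 0.17 without CBX7 replicate 2 and 0.13 without CBX7 replicate 1. It was 0.14 without control replicate 1 and 0.09 without control replicate 2. BCAM, a surface receptor for the laminin chain LAMA5, had 17.3 and 17.5 CPM in control and 38.3 and 33.0 CPM in CBX7 cells. Both CBX7 libraries lay well above both control libraries, and the deposited TPM separated the groups too, at 9.64 and 9.65 against 19.3 and 20.1. The log2 fold change of BCAM was 1.03 (SE 0.15, unadjusted p = 0.000519 and adjusted p = 0.26 by edgeR, adjusted p = 0.00347 by DESeq2), and it stayed between 0.93 and 1.14 (log2) with each library left out. CD9, a tetraspanin that associates with laminin-binding integrins, was at 0.37 (SE 0.15, unadjusted p = 0.0498 and adjusted p = 0.951 by edgeR), and COL17A1, the transmembrane collagen of hemidesmosomes, at -0.26 (SE 0.13). RPSA, a ribosomal protein also described as a laminin receptor, and SDC4, a syndecan of focal adhesions, had the highest TPM of this list, and their log2 fold changes were 0.14 (SE 0.19) and 0.09 (SE 0.12), with RPSA between -0.12 and 0.37 when single libraries were left out.

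Of 26 genes of integrin activation and the adhesion plaque, 25 were tested, and 0 passed an adjusted or an unadjusted p of 0.05 by edgeR or the adjusted p by DESeq2. Their median log2 fold change was -0.07, with 10 higher and 15 lower. The number called in this list depended on single libraries, as it did over all genes. Without CBX7 replicate 2 the median was -0.13, with 8 higher and 17 lower. Without CBX7 replicate 1 it was -0.07, with 11 higher and 14 lower. The lowest p belonged to TLN2, PARVB and FERMT3. TLN2, a talin that binds integrin tails, was at -0.61 (SE 0.34), and PARVB, a parvin that links them to actin, at 0.30 (SE 0.18). FERMT3, the kindlin of blood cells, was at 0.76 (SE 0.48) on 8 and 5 counts in control and 13 and 10 in CBX7 cells. The filter thus kept FERMT3 through the CBX7 libraries, where it was high. FLNA and ACTN4, actin crosslinkers with the highest TPM of the list, were at -0.23 (SE 0.16) and -0.13 (SE 0.12). With single libraries left out TLN2 ran from -0.88 to -0.28, PARVB from 0.07 to 0.50 and FLNA from -0.41 to -0.07 on the log2 scale.

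Of 20 other basement membrane genes 16 were tested, and 0 passed an adjusted p of 0.05 by edgeR or DESeq2, while 4 had an unadjusted p under 0.05, as 4.74% of all genes did. The median log2 fold change was -0.05, with 7 higher and 9 lower, and it turned to 0.05, with 10 higher and 6 lower, after the length correction and to 0.06 without CBX7 replicate 1. The number called by edgeR was 8 of 16 without CBX7 replicate 2, where the median was -0.15, and 4 of 16 without CBX7 replicate 1, against 35.5% and 2.59% of all genes. FBLN1, a fibulin, was at 0.49 (SE 0.14), HSPG2, the proteoglycan perlecan that binds laminin, at 1.00 (SE 0.33), and COL18A1, the source of endostatin, at 0.36 (SE 0.13), all higher in both CBX7 libraries, with adjusted p of 0.782, 0.911 and 0.943 by edgeR. HSPG2 ranged from 0.48 to 1.39 (log2) with single libraries left out. The other gene with an unadjusted p under 0.05 was NTN4, a netrin that binds laminin gamma chains, at -0.45 (SE 0.17), named after its values were seen. SPARC and AGRN had the highest TPM, and their log2 fold changes were -0.0015 (SE 0.13) and 0.09 (SE 0.12).

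Of 23 integrin ligands of the interstitial matrix and the cell surface 12 were tested, and 0 passed an adjusted p of 0.05 by edgeR, 2 had an unadjusted p under 0.05 and DESeq2 called 1, with 7 higher, 5 lower and a median of 0.04, which was -0.33 without CBX7 replicate 2 and 0.15 without CBX7 replicate 1. Over all genes 4.74% and 0.451% passed these rules. The number of ligands called by edgeR depended on single libraries, as it did over all genes. FN1, fibronectin, the ligand of ITGA5 with ITGB1, had 1770.0 and 1940.0 CPM in control and 689 and 1132 CPM in CBX7 cells. Both CBX7 libraries lay below both control libraries, as they did in deposited TPM, with 550.4 and 545 against 255 and 311. The log2 fold change of FN1 was -1.03 (SE 0.25, unadjusted p = 0.00716 and adjusted p = 0.597 by edgeR, adjusted p = 0.00687 by DESeq2), and it was -0.89 after correction for gene length. CCN2, a matricellular ligand, was at 0.49 (SE 0.14, adjusted p = 0.776 by edgeR), TGFB1, whose latent form binds ITGAV integrins, at 0.34 (SE 0.17), and CCN1, with FN1 the most abundant of the list, at 0.06 (SE 0.14). With single libraries left out TGFB1 ran from 0.15 to 0.51 and CCN1 from -0.05 to 0.16 (log2).

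Markers of other states were read beside these genes. All 6 tested epithelial markers were higher in CBX7 cells, with a median log2 fold change of 0.44. Without CBX7 replicate 1 there were 5 higher and 1 lower with a median of 0.10, and without CBX7 replicate 2 the median was 0.74. GATA3, among the 6, had 3 and 4 counts in control and 14 and 22 in CBX7 cells. The filter kept it through the CBX7 libraries, where it was high. With at least 10 counts required in every library 5 markers were tested, all higher, with a median of 0.30. KRT19 was at 1.35 (SE 0.23, adjusted p = 0.352 by edgeR and 0.00361 by DESeq2). The summed level of the 16 markers was 3157 to 3393 CPM in control and 3310 to 4597 CPM in CBX7 cells, so the groups overlapped, and CDH1, KRT5 and KRT14 had at most 2 counts in any library. The tested markers of fibroblasts and smooth muscle numbered 5 of 10, and all 5 were higher as well. Without CBX7 replicate 2 there were 4 higher and 1 lower, and without control replicate 1 or without control replicate 2 there were 5 higher and 1 lower of the 6 then tested. The summed level of the 10 was 10.1 to 10.3 CPM in control and 12.7 to 14.7 CPM in CBX7 cells. In deposited TPM the groups overlapped, with sums of 8.14 and 8.66 in control and 8.09 and 12.79 in CBX7 cells. Of 9 leukocyte markers 2 were tested and both were lower, with a median of -0.47, and without control replicate 2 there were 1 higher and 1 lower. The summed level of the 9 was 11.8 to 13.9 CPM in control and 7.61 to 9.57 CPM in CBX7 cells, most of it CD68, a lysosomal protein of macrophages, at -0.60 (SE 0.20, unadjusted p = 0.0258 and adjusted p = 0.916 by edgeR). Of 5 endothelial markers 1 was tested, CDH5, the cadherin of endothelial junctions, at -1.35 (SE 0.57) on 3 to 13 counts. It ran from -2.12 to -0.82 when single libraries were left out. Its counts were 13 and 12 in control and 3 and 7 in CBX7 cells. The filter thus kept CDH5 through the control libraries, where it was high. With at least 10 counts required in every library no endothelial marker was tested. In bulk RNA, fewer cells of a kind and less RNA per cell cannot be told apart, and the part of these markers in the values of ITGB4, BCAM and FN1 was not tested.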

How the data were processed

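The authors deposited, for each of 60623 genes in 4 libraries, an estimated count of reads, a TPM value scaled by length and library total, and a gene length. The authors also deposited columns of their own comparison (fold ratio, its log2, p-value, adjusted p-value) and group means of TPM, which were not used. The submitters' processing notes list cutadapt 1.9.1, HISAT2 2.0.1, HTSeq 0.6.1, DESeq2 and hg19 without their roles. HTSeq gives whole counts, whereas 66.9% to 68.6% of the deposited counts above 0 exactly equalled a whole number, and the deposited TPM did not follow from count and length for every gene (21 of 25 tested members were within 2-fold), so levels of single genes can differ between scales.

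Counts were rounded, and edgeR 4.0.16 (R 4.3.3) removed low genes with filterByExpr, applied TMM scaling and ran its quasi-likelihood test in the older default form (glmQLFit, glmQLFTest). The model held condition alone, and p-values were adjusted by the Benjamini-Hochberg method across 14862 genes. SE is the log2 fold change over the square root of F. With 2 libraries a group an exact two-sided permutation test cannot go below p = 0.333. Alternatives were DESeq2 1.42.0, other normalizations and filters, the newer quasi-likelihood form, a replicate block, removal of each library's trend with length or with length and GC, and each library left out. Identifiers were matched to GENCODE 29 on GRCh38 (58457 genes, 96.4%) and symbols to RefSeq start regions. Named are the members (1 is not reported here), CBX7 and, of each list, the genes past an adjusted p of 0.05, otherwise the 3 of lowest p, and the 2 of highest TPM; among markers and overlapping genes, those a result touches. The members, lists and tests were chosen with earlier results of these data known.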

Additional observations from a re-analysis of the deposited data

How the results depend on the processing

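Depth was 20800910 to 25135488 counts a library, with 2 libraries a group. CBX7 kept its direction and its call in every alternative. The number of genes called, 3 in the reported fit, was 67 with DESeq2, 265 with no filter, 361 with a replicate block, 310 with the block and the length correction, and 45 to 5491 with a library left out. Of the alternatives added after seeing the data, the length and GC correction gave 5, the block with it 144, the block with the newer quasi-likelihood form 350, and no filter with that form 1. Called integrins, 0 as reported, numbered 1 with DESeq2, 2 with no filter, 2 with the replicate block, 2 with the block and the length correction, 1 with the block and the length and GC correction, 2 with the block in the newer form, and 0 to 9 with a library left out. Called laminins were 0 to 2 with a library left out. With a library left out the median log2 fold change ran from -0.17 to -0.0158 for integrins and from -0.168 to 0.173 for laminins. Replicate numbers were shared only as numbers: same-numbered libraries deviated together with a correlation of 0.305 over 14862 genes, and of 0.614 over 11044 genes of at least 100 mean counts, and with 2 pairs this does not settle a pairing. Under the replicate block ITGB4 was at 1.44 (adjusted p = 1.15e-07 by edgeR) and ITGB3 at -0.89 (adjusted p = 0.00017). The prior degrees of freedom were 3.61 as reported and infinite under the block, with no filter and with a library left out. ITGB4 was called in 6 of 13 alternatives on all libraries (adjusted p 1.15e-07 to 0.45), ITGB3 in 3 and ITGA2 in 1. In log2 fold change, the length correction, alone and with the block, turned ITGB8 to 0.118 and 0.116, LAMB1 to 0.00817 and 0.00553 and LAMB2 to 0.0267 and 0.0166. The length and GC correction turned ITGA6 to 0.0295, ITGB8 to 0.125 and LAMB1 to 0.00125, and with the block ITGA6 to 0.0147 and ITGB8 to 0.124. The cause was not tested. With a library left out, direction was lost in ITGA2 (-0.202 to 0.918), ITGA6 (-0.335 to 0.249), ITGAV (-0.858 to 0.18), ITGB2 (-0.0192 to 0.209), ITGB8 (-0.424 to 0.286), LAMA1 (-0.641 to 0.896), LAMA2 (-0.147 to 0.945), LAMA3 (-0.248 to 0.322), LAMA5 (-0.162 to 0.26) and LAMC1 (-0.615 to 0.0227). By CPM per kilobase 9 of the 10 most abundant members were the same.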
